A study of Mus musculus with 4 samples.

Results

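Placental lactogens and pregnancy-specific glycoproteins are secreted proteins known best from the placenta. Their genes Prl3d1, Prl3d2, Prl3d3, Prl2c2, Prl2c3, Psg16 and Psg22 were measured in cultures of mouse pancreatic acinar cells that carried an adenovirus with ERRγ (estrogen-related receptor γ, encoded by Esrrg) or with green fluorescent protein (GFP). The 7 genes were taken by symbol from the 23282 gene rows of each count table, and all 7 had counts and were fitted. They were proposed with their difference between the viruses already known, so that difference is described here and not tested. The 3 Prl3d genes and Psg22 were counted mainly with ERRγ, Psg16 was somewhat higher with ERRγ, and the Prl2c genes were counted alike with either virus.

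The mouse prolactin family is a large set of related hormones most of whose genes lie in one cluster on chromosome 13, with Prl2c2 and Prl2c3 at a distance on the same chromosome. Prl3d1, Prl3d2 and Prl3d3 encode placental lactogen I in its α, β and γ forms, which trophoblast giant cells secrete in early pregnancy and which act through the prolactin receptor. Prl2c2 and Prl2c3 encode proliferins, secreted by giant cells and also known from growth-stimulated mouse fibroblast cultures. Psg16 and Psg22 belong to the pregnancy-specific glycoproteins, immunoglobulin-like proteins of the carcinoembryonic antigen family that trophoblast secretes, and a form of Psg16 is also known from brain. None of these genes belongs to the usual expression programme of the exocrine pancreas.

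ERRγ cultures and GFP cultures were both primary acinar cells from the pancreas of C57BL/6J mice, kept in Waymouth's medium with serum, trypsin inhibitor and 25 ng/ml recombinant human epidermal growth factor. Each virus was given at a multiplicity of infection of 100 and the cells were harvested after 36 h, so that GFP cultures also carried an adenovirus. There were 2 libraries for each virus, made with a Lexogen QuantSeq kit, which reads transcript ends. Whether libraries of 1 virus stem from different animals or culture dishes is not stated, and a p-value here covers the spread between libraries alone, which may be technical. The libraries held 10480878 and 10645277 counts with ERRγ and 10105604 and 11012351 counts with GFP. Of 10 acinar markers, Ptf1a was at 0 in all 4 libraries and the list summed to 593 and 477 counts with ERRγ and to 568 and 204 counts with GFP. The cultures thus held little RNA of acinar identity. Esrrg, the gene of the virus, had 1453 and 12994 counts in ERRγ libraries 1 and 2, against 86 and 107 counts in GFP libraries 1 and 2. The ERRγ libraries therefore stand far apart in Esrrg counts, and values are given for each of them. Fewer cells that express a gene and less RNA of it per cell cannot be told apart in such samples.

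The promoters of the Prl3d genes are shown because all 3 genes share one layout there. Promoter sequence was in the RefSeq table (build GRCm38.p6) for 4 of the 7 genes and covers 250 bases before to 50 bases after the annotated start. Prl3d1 is at chr13:27093939-27094238, Prl3d2 at chr13:27121445-27121744 and Prl3d3 at chr13:27156544-27156843, all on the plus strand. Capitals mark 3 short motifs read on both strands. The first is AGGTCA, the core half-site that ERRγ and other nuclear receptors bind, whose reverse complement stands here as TGACCT. The next is TGANTCA, known as the AP-1 site. The last is GATAA, the core of a GATA site, here as TTATC. They do not overlap one another in these windows.
Prl3d1: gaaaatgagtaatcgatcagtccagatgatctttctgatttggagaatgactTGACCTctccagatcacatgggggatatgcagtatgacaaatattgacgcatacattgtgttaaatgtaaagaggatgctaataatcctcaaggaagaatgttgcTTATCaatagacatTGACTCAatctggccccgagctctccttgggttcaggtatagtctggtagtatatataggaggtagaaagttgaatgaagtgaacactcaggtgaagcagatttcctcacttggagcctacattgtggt
Prl3d2: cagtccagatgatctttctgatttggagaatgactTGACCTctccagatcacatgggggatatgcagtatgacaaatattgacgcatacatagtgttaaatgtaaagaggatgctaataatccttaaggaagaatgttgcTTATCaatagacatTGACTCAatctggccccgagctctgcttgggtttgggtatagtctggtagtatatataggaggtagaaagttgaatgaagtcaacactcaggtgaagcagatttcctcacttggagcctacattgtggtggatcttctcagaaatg
Prl3d3: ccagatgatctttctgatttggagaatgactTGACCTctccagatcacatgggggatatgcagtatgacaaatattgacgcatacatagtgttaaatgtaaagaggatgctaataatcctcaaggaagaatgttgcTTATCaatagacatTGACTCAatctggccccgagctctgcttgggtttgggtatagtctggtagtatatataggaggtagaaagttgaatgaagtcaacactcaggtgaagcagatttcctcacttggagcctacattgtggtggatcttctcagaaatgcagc
Prl2c3, at chr13:12800030-12800329 on the minus strand and printed along the gene, is shown as the 1 other of the described genes in the table, and its window holds no AGGTCA.
Prl2c3: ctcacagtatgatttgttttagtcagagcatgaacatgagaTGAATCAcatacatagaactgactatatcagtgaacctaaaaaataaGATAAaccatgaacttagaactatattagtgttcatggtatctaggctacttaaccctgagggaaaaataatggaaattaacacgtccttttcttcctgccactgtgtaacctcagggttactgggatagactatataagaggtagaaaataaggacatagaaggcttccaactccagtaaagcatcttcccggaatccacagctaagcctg

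In the Prl3d1 promoter the AGGTCA half-site lies at −198 to −193 on the strand opposite to the gene, GATAA at −93 to −89 on the same opposite strand, and TGACTCA at −79 to −73, counted from the RefSeq start. The half-site lies at −215 to −210 in Prl3d2 and at −219 to −214 in Prl3d3. Its different distance goes with a different annotated start, since the promoters of Prl3d2 and Prl3d3 were 97.0% identical over the aligned bases. The Prl3d1 promoter was 87.4% identical to that of Prl3d2 and 85.4% identical to that of Prl3d3, and most of the remainder was the shift in start, with 6 and 5 mismatched bases. Neither AAGGTCA nor the longer TNAAGGTCA, the extended element of ERR receptors, was found in these windows. Over all 32851 promoters of the table, AGGTCA was found in 16.3%, AAGGTCA in 4.72%, TNAAGGTCA in 1.28%, TGANTCA in 7.81% and GATAA in 25.4%. Prl2b1, a family member with no count in any library, also holds all of AGGTCA, the AP-1 site and GATAA. Of the 22 prolactin family genes with a promoter in the table, 6 (27.3%) hold AGGTCA, the 3 Prl3d genes among them. The others, Prl2b1, Prl3b1 and Prl3c1, had no count in any library and also hold AAGGTCA. Prl3c1 alone of the 22 holds TNAAGGTCA. TGANTCA was found in 9 (40.9%) and GATAA in 14 (63.6%) of the 22, so these motifs are not particular to the Prl3d genes. A motif match describes the letters of the window and is not a measured binding site, and the motifs were chosen with the sequences in view.

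Reads from transcript ends separate Prl3d3 in part from its copies, and Prl3d1 from Prl3d2 much less. Their coding sequences were 97.9% identical between Prl3d1 and Prl3d2 and 98.7% between Prl3d3 and either of the others. Over the last 300 bases of the transcript, Prl3d1 and Prl3d2 differ by T14A, C64T and T73C, with positions counted from the first base of that stretch and the Prl3d1 base given first. All 3 of these positions lie before the end of the stop codon. Prl3d1 and Prl3d3 differ by T73C, G177A, A205T, C263A and A279T, the last 4 of which lie after the stop codon. Of the stretches of 50 bases in this window, 19.9% occur in no other annotated gene for Prl3d1, 25.5% for Prl3d2 and 62.5% for Prl3d3. These shares depend on the length of the stretch, and with 75 bases they were 32.3%, 28.3% and 83.2%. Prl3d3 therefore has more sequence of its own where reads start than the other copies have. How reads that match several places were counted is not given in the sources used here, so the sum over the 3 genes is the firmest value.

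Of all 13070 rows tested, 6.84% changed (edgeR's quasi-likelihood test, Benjamini-Hochberg adjusted p under 0.05), 5.06% with a rise and 1.78% with a fall in ERRγ cultures, and in 27.4% both ERRγ libraries lay above both GFP libraries. In the same fit 4 of the 7 genes (the Prl3d genes and Psg22) were among the rises and none among the falls, and 5 (these and Psg16) had both ERRγ libraries above both GFP libraries. Since the genes were chosen on this contrast, these counts are no support for it.

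Prl3d transcripts were well counted with ERRγ and nearly absent with GFP. Prl3d1, the α form (on the plus strand of chromosome 13, 27094190 to 27100258 in GRCm38), had 405 and 186 counts in ERRγ libraries 1 and 2, against 1 and 2 counts in GFP libraries 1 and 2. Prl3d2, the β form (27121698 to 27127555), had 290 and 158 counts with ERRγ, against 1 and 1 count with GFP. Prl3d3, the γ form (27156790 to 27162593), had 77 and 31 counts with ERRγ, against 0 and 0 counts with GFP. No ERRγ library overlaps a GFP library for any of the 3 genes, and ERRγ library 1 is the higher of its group each time. For Prl3d3 the ERRγ mean was 17.2 times the level that 3 counts in each GFP library would give, which is a lower bound for its fold over GFP. The 0 counts allow up to 0.307 and 0.269 CPM in GFP libraries 1 and 2 (CPM, counts per 1000000 counts of the library after TMM scaling).

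Summed over the 3 genes, there were 772 and 375 Prl3d counts in ERRγ libraries 1 and 2, against 2 and 3 counts in GFP libraries 1 and 2. These averaged 53.0 ± 22.5 CPM in ERRγ libraries and 0.237 ± 0.0457 CPM in GFP libraries (SD, n = 2 each). The ratio of the summed rates was 225, with an exact 95% counting interval of 96.1 to 694. The width of the interval comes from the 5 counts with GFP. Since PCR copies were not collapsed by molecular identifiers in any step named in the labels, such intervals and limits cover counting error only. On the log2 scale the ratio of mean summed CPM was 7.80, and it was 7.29 without ERRγ library 1, 8.18 without ERRγ library 2, 7.62 without GFP library 1 and 8.01 without GFP library 2.

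**Figure D1:**
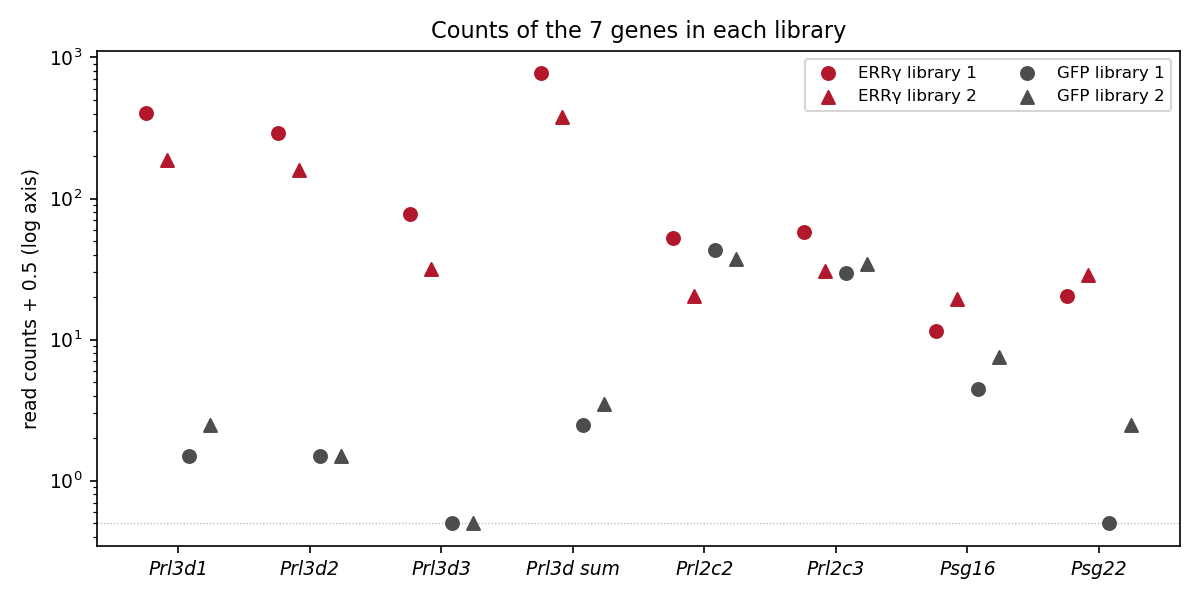
Read counts plus 0.5 on a log axis for the 7 genes and the summed Prl3d genes, with 1 point per library (ERRγ red, GFP grey, circles library 1, triangles library 2) and the dotted line at 0 counts. The summed Prl3d genes stand at 772 and 375 counts with ERRγ and at 2 and 3 counts with GFP, while the points of Prl2c2 and Prl2c3 overlap between viruses.

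The split of Prl3d counts over the 3 rows was similar in both ERRγ libraries. A fixed rule for sharing reads that match several copies would by itself give like proportions, and whether one was used is not given in the sources used here. Prl3d1 made up 52.5% of the Prl3d counts in ERRγ library 1 (95% Clopper-Pearson interval, 48.9 to 56) and 49.6% in ERRγ library 2 (44.4 to 54.8). Prl3d2 made up 37.6% (34.1 to 41.1) and 42.1% (37.1 to 47.3), and Prl3d3 made up 9.97% (7.95 to 12.3) and 8.27% (5.69 to 11.5) of these counts. The intervals of the ERRγ libraries overlap for each copy. With 2 and 3 counts in the GFP libraries, no proportion can be read there.

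**Figure D2:**
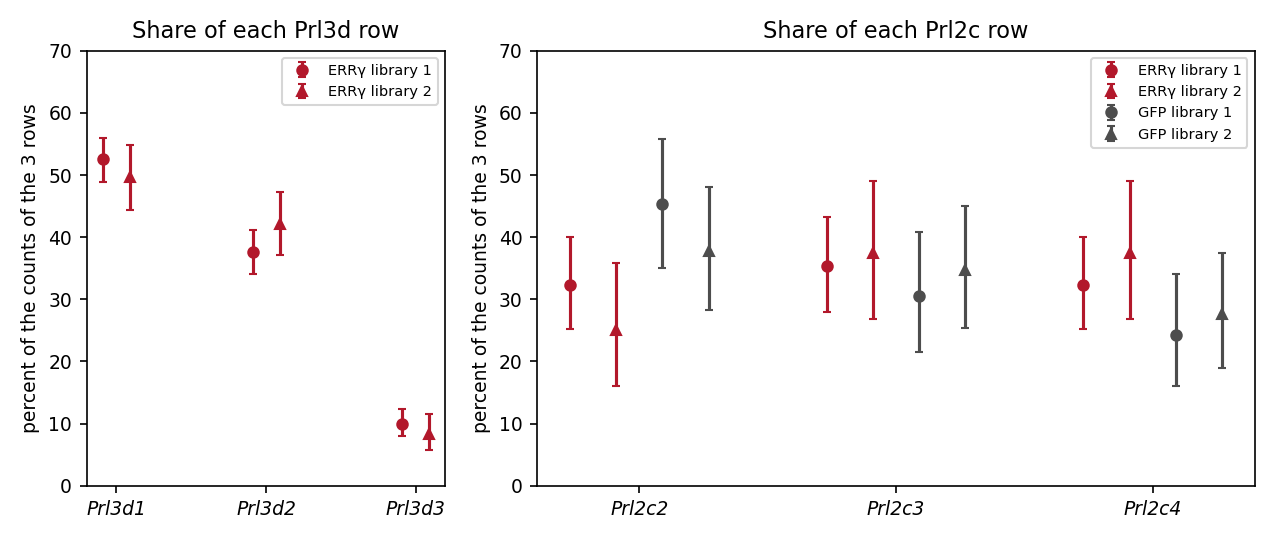
Percent of the summed counts that fell on each Prl3d row (left, ERRγ libraries, 772 and 375 counts) and on each Prl2c row (right, all libraries), with 95% Clopper-Pearson intervals as bars. Prl3d1 takes 52.5% and 49.6% and Prl3d3 takes 9.97% and 8.27%, while the 3 Prl2c rows lie between 24.2% and 45.3%.

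The proliferin genes Prl2c2 and Prl2c3 were counted with either virus and showed no separation. Prl2c2 (chromosome 13, 12996125 to 13005383, minus strand) had 52 and 20 counts in ERRγ libraries 1 and 2, against 43 and 37 counts in GFP libraries 1 and 2. Prl2c3 (12790816 to 12800079, minus strand) had 57 and 30 counts with ERRγ, against 29 and 34 counts with GFP. On the CPM scale the ERRγ libraries lie on either side of the GFP libraries for both genes, so the groups overlap. Their sum averaged 7.33 ± 3.38 CPM in ERRγ libraries and 6.87 ± 0.703 CPM in GFP libraries (SD, n = 2 each), a ratio of rates of 1.09 (counting interval, 0.864 to 1.38). The fitted log2 ratio was −0.21 for Prl2c2 and 0.42 for Prl2c3, and which side of 0 it fell on hung on the ERRγ libraries. Without ERRγ library 2 it was 0.27 for Prl2c2, and without ERRγ library 1 it was −0.022 for Prl2c3.

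Reads from the ends of the proliferin transcripts cannot separate these genes. In the last 300 bases all stretches of 50 bases of Prl2c2 and 98.0% of those of Prl2c3 occur in another annotated gene, mainly in each other. Prl2c4 has a row of its own in the tables with 52 and 30 counts with ERRγ and 23 and 27 counts with GFP, and RefSeq lists that symbol as a synonym of Prl2c3. Its counts lie close to those of Prl2c3 in every library. Prl2c4 did not pass the test (log2 fold change 0.67, SE 0.47, adjusted p = 0.436, edgeR's quasi-likelihood test with Benjamini-Hochberg adjustment over 13070 rows). Summed over the 3 Prl2c rows there were 161 and 80 counts with ERRγ and 95 and 98 counts with GFP, which again overlap.

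The pregnancy-specific glycoprotein genes were low, with the higher counts in ERRγ libraries. Psg22 (on the plus strand of chromosome 7, 18718090 to 18727248) had 20 and 28 counts in ERRγ libraries 1 and 2, against 0 and 2 counts in GFP libraries 1 and 2. Both ERRγ libraries lie above both GFP libraries, and the ratio of rates was 23.5 (counting interval, 6.17 to 200). Without GFP library 1 the fitted log2 ratio of Psg22 was 3.57, against 4.42 with all libraries, and without GFP library 2, which holds its 2 GFP counts, it was 7.56, a value set by the prior count. Psg16 (same strand, 17074040 to 17133450) had 11 and 19 counts with ERRγ, against 4 and 7 counts with GFP. Its groups do not overlap either, and its ratio of rates was 2.67 (counting interval, 1.30 to 5.91). With GFP, Psg16 thus stood at a few counts in each library, as did the summed Prl3d genes with 2 and 3 counts.

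Unlike the Prl3d copies, Psg16 and Psg22 can be read apart. No stretch of 50 bases in the last 300 of the Psg16 transcript occurs in another annotated gene. For Psg22, 80.9% are its own and the others are shared with Psg17, Psg21, Psg26 or Psg28. With stretches of 75 bases, all of those of Psg22 are its own. Psg16 contains the processed pseudogene Gm45219 on the opposite strand, and whether counting used strand is not given in the sources used here. The coding sequences of Psg16 and Psg22 were 64.0% identical over the alignment.

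Most of the other prolactin family genes were silent with either virus. Of the 22 other family genes with a row, 14 had no count in any library, among them Prl3b1, which encodes placental lactogen II, the hormone of later pregnancy, and Prl3c1, the neighbour of Prl3d3. Prl6a1, a placental family member, had 5 and 8 counts with ERRγ, against 0 and 0 counts with GFP. Prl7a2 had 9 and 0 counts with ERRγ, against 0 and 0 counts with GFP, and Prl2c1 had 9 and 8 counts with ERRγ, against 2 and 9 counts with GFP. Prl, the pituitary hormone itself, had 0 and 1 count with ERRγ, against 6 and 0 counts with GFP. Beside the Prl3d genes and the Prl2c2, Prl2c3 and Prl2c4 rows, then, no family gene had more than 17 counts over the ERRγ libraries. Of these 22 genes only Prl2c4 was high enough to test, and 0 of 1 passed with edgeR, DESeq2 or limma-voom, also at an unadjusted p under 0.05 with edgeR.

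**Figure D3:**
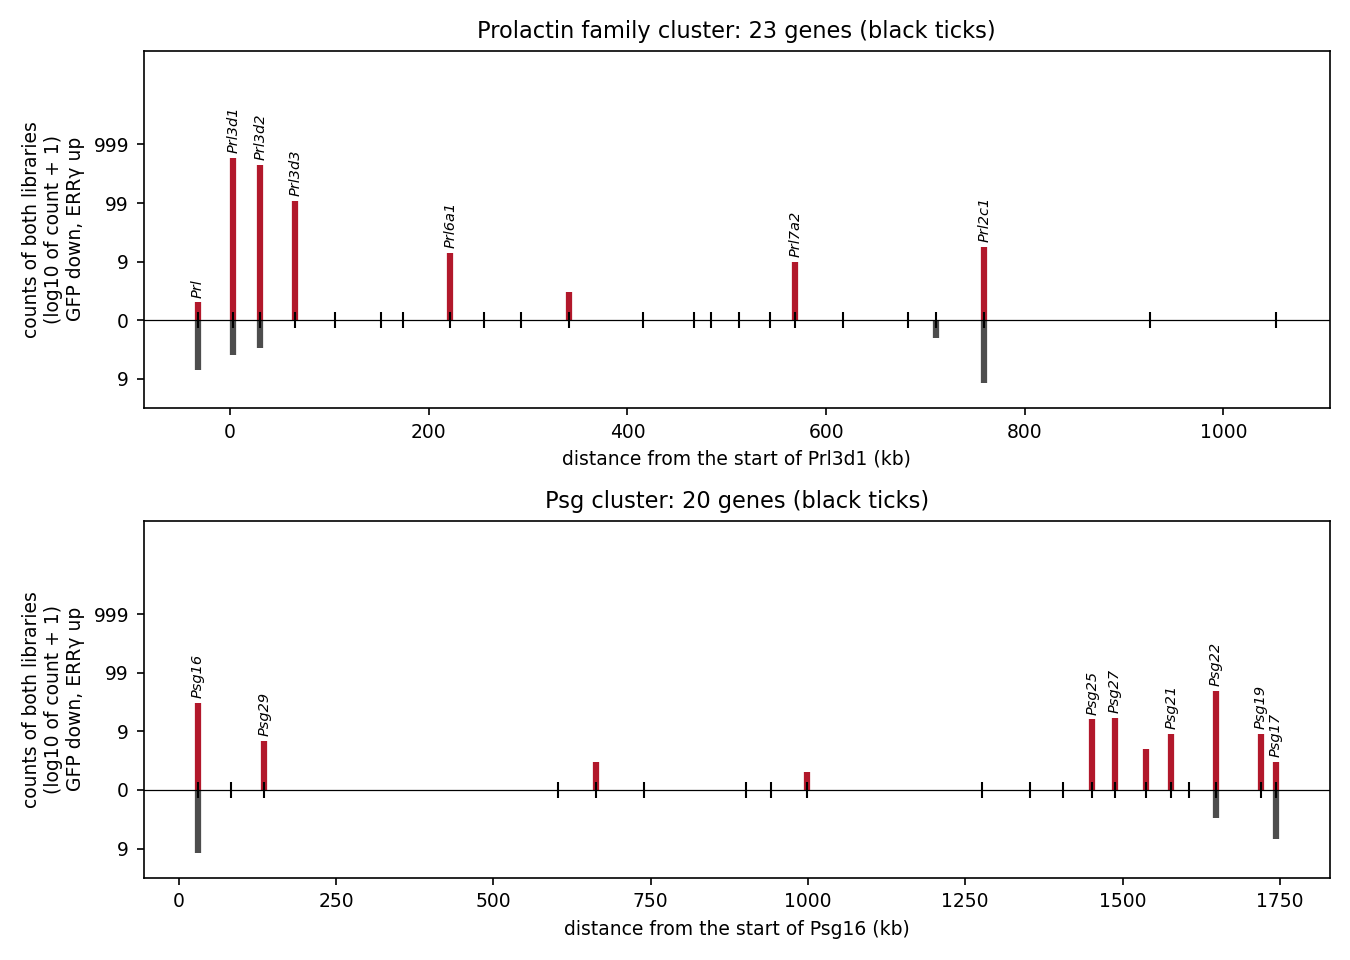
Counts summed over both libraries of a virus (ERRγ upwards in red, GFP downwards in grey, log10 of the count plus 1) along the prolactin cluster on chromosome 13 and the Psg cluster on chromosome 7, by distance from the start of Prl3d1 or Psg16 in kb. The Prl3d genes, side by side at the left, carry 591, 448 and 108 counts with ERRγ, and the next highest gene of that cluster, Prl2c1, is counted with both viruses.

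Several other Psg genes had a few counts with ERRγ and none with GFP, while Psg17 had more counts with GFP. Of 14 Psg rows, Psg16 and Psg22 included, 6 had counts with ERRγ alone, none had counts with GFP alone and 5 had no count. Over all 17888 rows with a count, 6.79% had counts with ERRγ alone and 4.13% with GFP alone. Psg25 had 10 and 5 counts in ERRγ libraries 1 and 2, against none with GFP, and Psg27 had 4 and 12 counts, against none with GFP. The 11 other Psg genes together had 29 and 30 counts with ERRγ, against 4 and 2 counts with GFP, and all of the GFP counts fell on Psg17. Psg17 itself had 2 and 0 counts with ERRγ, against 4 and 2 counts with GFP. Their sum averaged 2.78 ± 0.266 CPM in ERRγ libraries and 0.294 ± 0.162 CPM in GFP libraries (SD, n = 2 each). None of the 11 was high enough to test, so this difference has no test.

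Of 15 rows of Ceacam genes, relatives of the Psg genes, 3 were high enough to test and none of them passed. Another 3, at 4 counts or fewer, had counts with ERRγ alone, such as Ceacam20 with 2 and 2 counts, and no Ceacam gene had counts with GFP alone. Ceacam1, which encodes an adhesion protein of epithelia, had 1808 and 923 counts with ERRγ, against 1414 and 2016 counts in GFP libraries (log2 fold change −0.37 with SE 0.25, adjusted p = 0.435). Ceacam2 had 402 and 197 counts with ERRγ, against 347 and 414 counts in GFP libraries (log2 fold change −0.39 with SE 0.26, adjusted p = 0.423 by the same test). On the CPM scale ERRγ library 1 lies between the GFP libraries for both genes and ERRγ library 2 lies below them. Without ERRγ library 1 both were called lower with ERRγ (log2 fold change −0.84 for Ceacam1 and −0.90 for Ceacam2, adjusted p = 2.12e-05 and 0.000634). Ceacam16, with 13 and 7 counts, against 11 and 20 counts with GFP, did not pass (adjusted p = 0.608). Of the 27 other Psg and Ceacam genes with a row, 3 were tested and 0 passed with edgeR, DESeq2 or limma-voom, and 0 had an unadjusted p under 0.05 with edgeR.

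Among genes that receive or carry the signals of these hormones, Cd9 rose with ERRγ. The prolactin receptor gene Prlr, whose product binds placental lactogens, was too low to test, with 4 and 5 counts with ERRγ, against 11 and 3 counts with GFP. Of 24 receptor and signalling genes, 22 were tested, and Cd9 was the 1 that rose and none fell, against 6.84% of all rows called (median log2 fold change −0.12, against −0.01 over all rows tested). Both ERRγ libraries lay above both GFP libraries for 6 of the 22 and below them for 10, where 27.4% and 26.6% of all rows did so. Cd9, a tetraspanin that is a receptor for the mouse protein PSG17, averaged 152 ± 27.2 CPM in ERRγ cultures, against 92.5 ± 0.912 CPM in GFP cultures (log2 fold change 0.72, SE 0.16, adjusted p = 0.0359). Igf2r, whose product binds proliferin, had 1501 and 1727 counts with ERRγ, against 1582 and 2009 counts with GFP (adjusted p = 0.578). Cish, a feedback inhibitor that STAT5 induces, had 475 and 631 counts with ERRγ, against 346 and 453 counts with GFP (log2 fold change 0.46, adjusted p = 0.221). Stat5a and Stat5b, the transcription factors of prolactin signalling, had log2 fold changes of 0.011 and 0.21 (adjusted p = 0.990 and 0.648). For Cish an unadjusted p of 0.0521 in edgeR's test became 0.221 after adjustment, so unadjusted p-values near 0.05 were common over all rows. The share of all rows under 0.05 was not computed. Of the list 5 had an unadjusted p under 0.05, Cd9 included, a count that is therefore no result about the list. Among them, Tgfb2, which encodes a TGF-β ligand, had 497 and 436 counts with ERRγ, against 284 and 183 counts with GFP (log2 fold change 0.95, adjusted p = 0.0654), and passed with DESeq2 (adjusted p = 0.0149), limma-voom (0.0486), the replicate block (0.0231) and no filter on low counts (4.45e-05). Jak2, the kinase of the prolactin receptor, had 338 and 269 counts with ERRγ, against 381 and 508 counts with GFP (log2 fold change −0.58, adjusted p = 0.0788), and passed with no filter (0.0206). The call for Cd9 ended without GFP library 1 (adjusted p = 0.291) or GFP library 2 (0.232).

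Among genes known from trophoblast, the transcription factors Tfap2c and Esrrb rose with ERRγ, the keratins Krt7 and Krt8 fell, and many placental genes had no count. Of 32 trophoblast genes, 11 had no count in any library and 12 were tested, of which 2 rose, 2 fell and 8 did not pass, where 5.06% of all rows rose and 1.78% fell. Of the 12 tested, 9 had an unadjusted p under 0.05 with edgeR, and the share of all rows under that limit was not computed. Among those of the 9 that did not pass after adjustment, Bmp8b had a log2 fold change of 1.54 and Krt18 one of −0.41. By the same test the unadjusted p of Krt18 was 0.0326 and its adjusted p 0.173, so such unadjusted values were common over all rows. Tfap2c, Esrrb and Gata3 passed the filter on low counts through their ERRγ libraries alone, and Eomes would not have passed on its GFP libraries. The tested part of the list thus leans to genes that are high with ERRγ, and rises of these genes are no support for the list. Tfap2c, an AP-2 factor needed in early trophoblast, had 32 and 38 counts in ERRγ libraries and 0 in GFP libraries (adjusted p = 0.0107, edgeR's test). Its ERRγ mean was 11.5 times the level that 3 counts in each GFP library would give, a lower bound for its fold over GFP. Esrrb, the receptor related to ERRγ, had 16 and 34 counts with ERRγ, against none with GFP (adjusted p = 0.0255). The keratin genes Krt7 and Krt8, shared with duct and other simple epithelia, fell to 800 ± 4.57 and 2894 ± 240 CPM in ERRγ libraries, against 1254 ± 13.1 and 4574 ± 157 CPM in GFP libraries, by log2 fold changes of −0.65 and −0.66 (adjusted p = 0.0285 and 0.0394). These 4 calls ended without GFP library 1 (adjusted p between 0.105 and 0.281) or GFP library 2 (0.0891 to 0.286), with log2 fold changes of −0.64 and −0.66 for Krt7 and −0.70 and −0.63 for Krt8. With no filter on low counts 8 of the list rose and 3 fell, and with a mean of at least 5 CPM 0 rose and 2 fell. Eomes, a factor of trophoblast stem cells, had 78 and 51 counts with ERRγ, against 18 and 4 counts with GFP (log2 fold change 2.47, adjusted p = 0.0700), and passed with DESeq2 (adjusted p = 0.0112), with the replicate block (0.0311) and with no filter (9.25e-05).

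Of the factors known to act on the Prl3d1 promoter or in giant cells, Gata2, Gata3 and Hand1 were looked at, and AP-1 genes were not. Gata2 had 32 and 22 counts with ERRγ, against 15 and 14 counts with GFP (log2 fold change 0.85, adjusted p = 0.385). Gata3 had 34 and 27 counts, against 2 and 9 counts with GFP (log2 fold change 2.44, adjusted p = 0.0850), and passed with no filter on low counts (adjusted p = 0.0173). Hand1, which drives giant cell differentiation, had 5 and 27 counts in ERRγ libraries 1 and 2, against 2 and 0 counts with GFP. Hand1 was too low to test. It had fewer counts in the ERRγ library with the higher Prl3d counts, and whether the 2 are linked was not tested. Of the other giant cell markers, Prl3b1, Ctsq and Cts7 were at 0 in all libraries, as were all 4 spongiotrophoblast markers (Tpbpa, Tpbpb, Prl8a8 and Prl3a1) and the growth hormone gene Gh of the pituitary. Of the 8 giant cell markers, 4 are genes described here, and of the other 4 Hand1 was the 1 with a count; the list summed to 829 and 422 counts with ERRγ, against 47 and 40 counts with GFP, nearly all of it Prl3d and Prl2c2. All markers of the ductal, fibroblast and endothelial lists had counts with both viruses, the ductal list at 25470 and 28078 counts with ERRγ, against 29851 and 32788 counts with GFP. The ductal marker Cftr rose with ERRγ (log2 fold change 1.25, adjusted p = 0.0444), as did the acinar marker Prss2 (2.78, adjusted p = 0.00905). Of 3 immune markers, Cd68 had 27 and 67 counts with ERRγ, against 51 and 47 counts with GFP. Adgre1 had 0 and 0 counts with ERRγ, against 8 and 20 counts with GFP, and Ptprc had 1 count in all. The part of any other cell type in the Prl3d result was not tested. A count of 0 allows up to 0.268 and 0.296 CPM in ERRγ libraries 1 and 2.

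**Figure D4:**
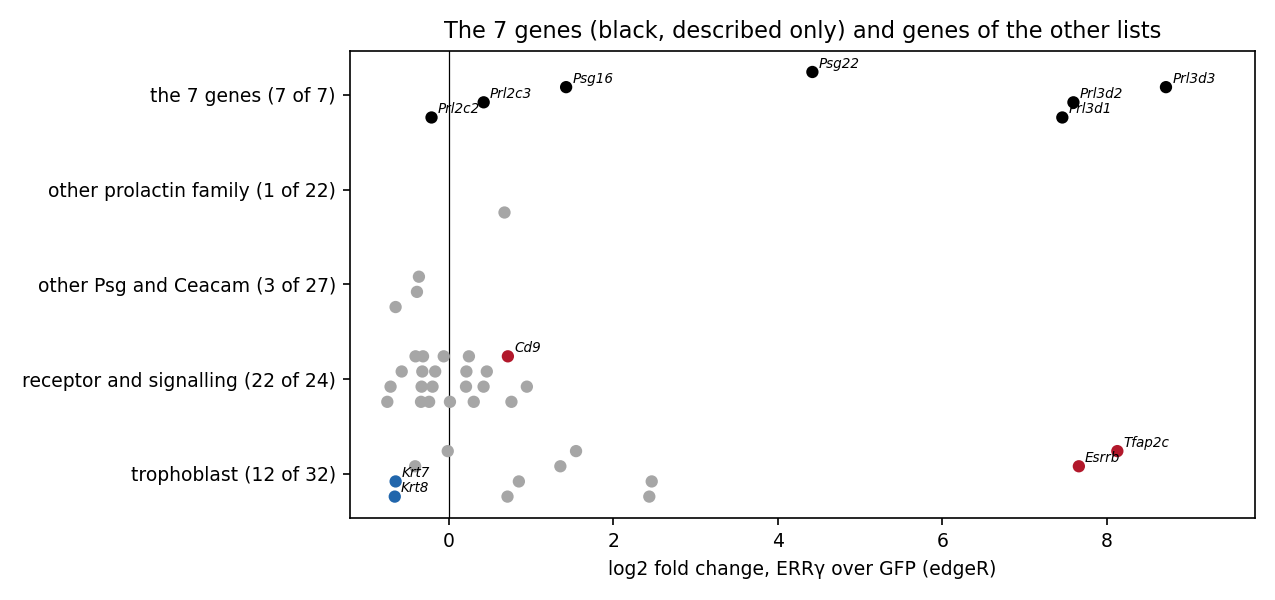
Log2 fold change of ERRγ over GFP for the fitted genes of each list, with the number fitted of the number with a row; red genes rose and blue genes fell in edgeR's quasi-likelihood test (adjusted p under 0.05), grey genes did not pass, and the 7 genes are black. Prl3d3, Esrrb and Tfap2c have no count with GFP, so their place on the axis is set by the prior count and is no measured size.

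Within ERRγ cultures, the library with more Esrrg counts had fewer Prl3d counts. ERRγ library 2 held 9.90 times the Esrrg CPM of library 1, and 0.538 times its summed Prl3d CPM (37.0 in library 2 and 68.9 in library 1). The proliferin genes leaned the same way as Prl3d, with 0.508 times the CPM in library 2, while Psg16 and Psg22 together leaned the other way, with 1.68 times (4.64 CPM in library 2 and 2.77 CPM in library 1). Over 12771 rows with at least 20 counts in the ERRγ libraries, the log2 differences of library 1 over library 2 ran between −0.85 and 0.97 at the 5th and 95th percentiles, with a median of 0.0029. The Prl3d difference, 0.89, was reached or passed by 5.86% of rows, so these genes lie near the edge of the spread between the ERRγ libraries. With 2 libraries no dose relation can be tested. A read at a transcript end counts the introduced gene at Esrrg only where the construct keeps sequence that maps there.

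**Figure D5:**
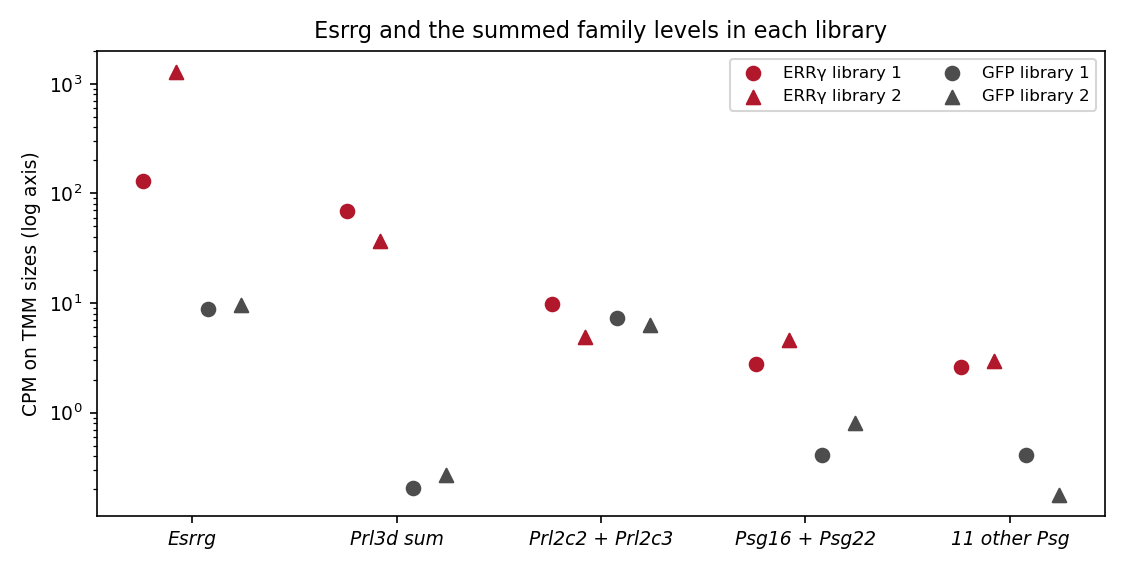
CPM on TMM library sizes (log axis) of Esrrg and of the summed gene groups, with 1 point per library (ERRγ red, GFP grey, circles library 1, triangles library 2). Esrrg is 9.90 times as high in ERRγ library 2 as in library 1, while the summed Prl3d genes stand at 68.9 CPM in library 1 and 37.0 CPM in library 2.

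The genes with the pattern most like the summed Prl3d counts over the 4 libraries, by Euclidean distance in log2 of CPM plus 1, were Pgm5 (distance 0.94), AI593442 (1.18), Nr0b2 (1.76), Klra18 (1.95) and Klhdc8a (2.04). Pgm5, whose product is a protein of adhesion sites related to phosphoglucomutase, had 433 and 335 counts with ERRγ, against 0 and 0 counts with GFP. Klra18, a gene of the natural killer cell receptor family Ly49, had 237 and 201 counts with ERRγ, against 4 and 9 counts with GFP. For Psg16 and Psg22 together the nearest genes were Stac (0.23), Rbpjl (0.34), Srrm4 (0.46), Arhgef6 (0.47) and Hspa1l (0.47). Rbpjl, a subunit of the acinar transcription factor complex PTF1, had 25 and 43 counts with ERRγ, against 6 and 11 counts with GFP. A distance over 4 libraries ranks genes of like level and like group difference and is a description only.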

How the data were processed

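Transcript ends were counted in 4 QuantSeq libraries of primary mouse acinar cells, 2 with ERRγ and 2 with GFP adenovirus, grouped by their titles. The deposited values are raw read counts per gene symbol, 1 table per library. The submitters' processing notes name Bowtie2, edgeR and mm10 but no versions. Which counter and annotation were used, whether strand was used and how reads with several matches were treated is not given in the labels. Each of the 4 tables has 23282 rows; 35 symbols stand on 79 rows, which were kept apart.

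Rows were filtered with filterByExpr (minimum count 10), which kept 13070, scaled by TMM (factors 0.952 to 1.07) and tested with edgeR 4.0.16 in R 4.3.3 (glmQLFit with a prior count of 0.125, glmQLFTest, group as the only term, two-sided, Benjamini-Hochberg adjustment over all rows tested, threshold 0.05). SE values were taken as the absolute log2 fold change over the square root of its F statistic. The test was tried on simulated counts. A group with no count was set at 3 counts per library for a lower bound, and ratios of rates carry exact 95% counting intervals.

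The 7 genes, the lists and the tests were chosen with earlier results of these data known. Genes of the other lists were named where they passed the threshold, where the text spells out a receptor, a regulator or a zero, and, in the family lists, where they had at least 10 counts over the 4 libraries; receptors and regulators that did not pass were chosen after their values were seen. Gene positions are those of GENCODE M21 (GRCm38, the same assembly as mm10), and promoters from RefSeq on GRCm38.p6. Transcript ends were compared over the last 300 bases of each gene's longest coding transcript, in stretches of 50 and of 75 bases against all GENCODE M21 transcripts. Alternatives were other scalings, DESeq2 1.42.0, limma-voom (limma 3.58.1), other filters, each library left out and a replicate block.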

Additional observations from a re-analysis of the deposited data

How the results depend on the processing

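The log2 ratio of the summed Prl3d genes lay between 7.29 and 8.18 over all alternatives, those that leave out a library included. It was the ratio of mean CPM for the other scalings, the filters and the left-out libraries. With DESeq2, limma-voom and the replicate block it was instead the fitted log2 fold change of the summed row. The lowest value with all 4 libraries, 7.48, was the fitted one of limma-voom. The fitted log2 ratios of Prl2c2 (−0.96 to 0.27) and Prl2c3 (−0.022 to 0.75) changed sign between fits without 1 library, and the other 5 genes kept theirs in every alternative that fitted them; the 5 CPM filter dropped Prl3d3, Prl2c2, Prl2c3, Psg16 and Psg22. Over all genes 894 were called, 2009 with no filter on low counts, and 99 to 2695 when a library was left out, lowest without GFP library 1 (99) and GFP library 2 (139) and higher without ERRγ library 1 (2695) and ERRγ library 2 (1614). A group left with 1 library is assumed there to vary like the other group. Of the receptor and signalling genes 1 was called, 2 with DESeq2, with limma-voom and with the replicate block, 3 with no filter, and 0 to 6 when a library was left out. Of the trophoblast genes 4 were called, 11 with no filter, 2 with the 5 CPM filter, and 0 to 7 when a library was left out. For the other Psg and Ceacam genes the range was 0 to 2. The replicate numbers are not stated to pair libraries, and deviations of same-numbered libraries did not correlate across genes (0.013); with the replicate block 1091 genes were called (776 up, 315 down) and the summed Prl3d log2 ratio was 7.68. Beyond what the filters and the left-out libraries change by construction, the cause was not tested. Depth limits the Psg values, since 1 count is 0.0892 to 0.102 CPM.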

Other observations

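Few genes passed cutoffs that lie close to the values of the Prl3d genes themselves. Of 23282 rows, 22 had at most 5 counts over the GFP libraries and at least 100 over the ERRγ libraries, and 3 of them were Prl3d1, Prl3d2 and Prl3d3. Genes of like pattern fall outside these cutoffs, such as AI593442 with 504 and 304 counts with ERRγ, against 13 and 5 counts with GFP. Among the 22, Apela, which encodes a peptide hormone of the early embryo, had 191 and 154 counts with ERRγ, against 4 and 0 counts with GFP. Hsd3b1, which encodes a steroid dehydrogenase, had 65 and 41 counts with ERRγ, against 0 and 0 counts with GFP. Umod, which encodes the kidney protein uromodulin, had 52 and 68 counts with ERRγ, against 0 and 0 counts with GFP. Lsmem1 had 0 and 114 counts in ERRγ libraries 1 and 2 and none with GFP, so it rests on ERRγ library 2. These genes were chosen after their values were seen.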
